A study of Mus musculus with 12 samples.

Results

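The comparison described here is that of embryonic mouse lungs kept for 2 days as explants inside a hardened polymer shell with lungs taken at the start of that treatment. Lungs came from wild type CD-1 embryos at 12.5 days of gestation and were cultured in Matrigel on porous inserts at an air-liquid interface. On the following day (Day 0) a 20% solution of the photosensitive polymer PEG-HCC was added, and a two-photon laser hardened it around the lungs of the compression group. Both Day 2 groups received the polymer, so the Day 2 control group (uncrosslinked polymer, the same 2 days) differs from compression by the crosslinking, whereas Day 0 differs from compression by 2 days of culture, the polymer and its crosslinking together. By their labels, 4 libraries were Day 0 and 4 were Day 2 compression, which makes 8 of the 12 libraries of the series, and the remaining 4 (Day 2 control) are used only for values set beside these. All gene symbols of the table were considered: 15246 of 24421 had enough reads to be tested. Nothing in the labels ties a library to an embryo or a litter, and explants lack blood flow and the body wall.

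At this age the lung is a branching epithelial tree inside mesenchyme. Tips of the tree, marked by Sox9 and Id2, hold progenitors that later form the gas-exchanging alveolar epithelium, whereas the stalks, marked by Sox2, give rise to conducting airways with multiciliated, secretory and neuroendocrine cells. Endothelial cells, smooth muscle, mesothelium and resident macrophages surround the tree, and signals such as FGF, Wnt, BMP, Hedgehog and retinoic acid pass between the layers. Whole explants were sequenced, so a change in the amount of a transcript can stand for a change in the number of cells of a type or in the RNA per cell, and these cannot be told apart here.

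All 16 markers chosen to check the tissue were present in every one of the 8 libraries. They mark epithelium (Nkx2-1, Foxa2, Epcam, Cdh1), distal tips (Sox9, Id2, Sftpc), proximal airway (Sox2), mesenchyme (Foxf1, Tbx4, Tbx5, Tcf21), mesothelium (Wt1, Upk3b) and endothelium (Pecam1, Cdh5). The lowest level among them was 10.2 CPM (counts scaled to the library size, the CPM unit). Total counts ran from 13979871 to 33249761 at Day 0 and from 25680019 to 31739019 under compression. Some libraries stood apart. Compression replicate 1 had 2771 CPM of Xist, the RNA of the inactive X chromosome of females, and no read of 4 Y-linked genes, while the other 7 libraries had Y-linked reads and under 1 CPM of Xist. Compression replicates 2 and 3, described as 13A and 13B, were closer to each other (dispersion 8.76e-04) than any other pair within these groups (at least 0.00557), and the labels do not tell whether they are 1 sample prepared as a pair. They count as separate libraries in n, in SDs and in calls, and results with their counts summed into 1 sample are given where that changes them. Counts of the ribosomal precursor Rn45s made up 0.765% to 1.53% of counts at Day 0 and 0.553% to 5.64% under compression, and fits without it are among the alternatives.

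Over the 2 days, genes of airway cell differentiation were among the largest rises, blood vessel and red cell genes among the largest falls, and many genes changed by small factors in both directions. With edgeR's quasi-likelihood test and an adjusted p under 0.05 (called, from here on), 7489 genes differed between compression and Day 0, which is 49.1% of the genes tested. With compression replicates 2 and 3 summed the number was 6658. Of the genes tested, 26.6% were called higher (4062) and 22.5% lower (3427). These shares are the background against which the counts of each gene group below are read. Most calls were small: 5706 of them (76.2%) changed by less than 2-fold. At 2-fold or more, 1384 genes were higher (9.08% of those tested) and 399 lower (2.62%), and at 8-fold or more 243 were higher and 12 lower. The median log2 fold change was 0.69 among genes called higher, -0.39 among genes called lower and 0.017 over all genes tested. Without any test, all 4 compression libraries lay above all 4 Day 0 libraries for 23.5% of genes and below them for 19.5%. Along the first principal component of the 8 libraries, which held 71.7% of the variance, Day 0 libraries scored -58.2 to -41.4 and compression libraries 46.1 to 54.4. The second component held 9.57% and set compression replicate 1 (40.3) apart from the other 7 libraries (-16.9 to 12.6). It also split the Day 0 libraries: replicates 1 and 2 scored 12.6 and 12.1, and replicates 3 and 4 scored -11.9 and -16.1. Dispersion was 0.00899 between Day 0 replicates 1 and 2 and 0.00557 between 3 and 4, against 0.0145 to 0.0309 across these pairs.

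**Figure D1:**
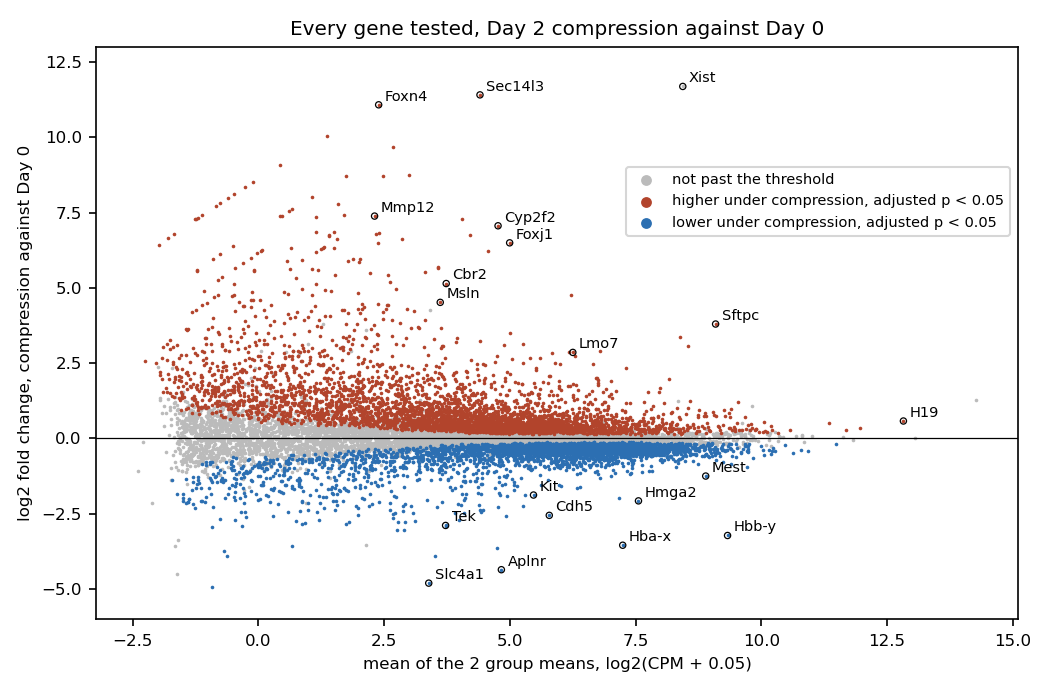
Log2 fold change of every gene tested (vertical axis, compression against Day 0) against its mean level over both groups (horizontal axis, log2 of CPM plus 0.05). Red points are the 4062 genes called higher, blue points the 3427 called lower and grey points the rest; the highest folds include airway genes such as Sec14l3 and Foxn4, the lowest include vessel and red cell genes such as Aplnr and Slc4a1, and Xist, carried by 1 library, is grey.

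The 5 rises with the smallest p-values were those of Sema3e, Htra1, Lmo7, Trabd2b and Krt19. Sema3e, a secreted guidance cue that repels vessels through plexin D1, stood at 57.5, 59.9, 56.6 and 59.3 CPM in Day 0 replicates 1 to 4 and at 175, 183, 191 and 176 CPM in compression replicates 1 to 4 (log2 fold change 1.64, SE 0.062, adjusted p = 5.07e-09); values per library keep this order throughout. Htra1, a secreted serine protease, rose from 6.25, 5.98, 5.5 and 6.71 to 28.5, 36.1, 35.8 and 36.4 CPM (log2 fold change 2.48, SE 0.11, adjusted p = 1.23e-08). Lmo7, a LIM-domain protein of cell junctions, stood at 17.5, 22, 14.8 and 19.7 CPM at Day 0 and at 104, 144, 145 and 140.5 CPM under compression (log2 fold change 2.86, SE 0.12, adjusted p = 1.23e-08). The groups did not overlap for any of these, and for Lmo7 the lowest compression library held several times the level of the highest Day 0 library. Trabd2b, an inhibitor of Wnt proteins, averaged 21.1 ± 0.764 CPM at Day 0 and 56.7 ± 3.95 CPM under compression (log2 fold change 1.43), where ± marks the SD over 4 libraries here and below. Among falls, the smallest p-values belonged to Gimap6, Mest, Kit, Tek and Slc14a1. Gimap6, a GTPase of the lymphocyte and endothelial Gimap family, went from 26.5, 26.1, 25.2 and 29.2 CPM at Day 0 to 5.93, 6.08, 6.18 and 5.18 CPM under compression (log2 fold change -2.2, SE 0.11, adjusted p = 2.72e-08). Kit, the stem cell factor receptor, stood at 59, 68.7, 69.4 and 81.2 CPM and then at 19.1, 20.0, 19.9 and 16.7 CPM (log2 fold change -1.88, SE 0.10, adjusted p = 3.26e-08). The urea transporter gene Slc14a1 averaged 11.1 ± 0.93 CPM at Day 0 and 1.99 ± 0.165 CPM under compression (log2 fold change -2.48). Every compression library lay below every Day 0 library for Gimap6, Kit and Slc14a1.

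Among genes called, the largest gains in absolute terms belonged to abundant transcripts. H19, an imprinted RNA of fetal tissues, gained the most of them: it stood at 6075, 6570, 5215 and 5420 CPM at Day 0 and at 9443, 8373, 8486 and 8458 CPM under compression (log2 fold change 0.58, SE 0.092, adjusted p = 0.000184). The second largest gain was that of surfactant protein C (Sftpc), described with the alveolar genes below, followed by the fetal growth factor gene Igf2 (log2 fold change 0.34, SE 0.11, adjusted p = 0.0248), the fatty acid desaturase gene Scd2 (log2 fold change 0.50, SE 0.067, adjusted p = 4.21e-05) and the fibrillar collagen gene Col3a1 (log2 fold change 0.30, SE 0.10, adjusted p = 0.027). Igf2 lost its call without Day 0 replicate 3 (adjusted p = 0.0948), Day 0 replicate 4 (0.0853) or compression replicate 1 (0.086). Col3a1 lost it with compression replicates 2 and 3 summed (adjusted p = 0.0828) and without any 1 of Day 0 replicates 1, 2 and 4 or compression replicates 2 to 4 (adjusted p = 0.0693 to 0.1). Among genes called, the largest losses in CPM were those of the embryonic globin gene Hbb-y, the tubulin gene Tubb5 (log2 fold change -0.41, SE 0.079, adjusted p = 0.000886), the proteoglycan gene Vcan (log2 fold change -0.95, SE 0.16, adjusted p = 0.000302), the translation factor gene Eif4g2 (log2 fold change -0.48, SE 0.081, adjusted p = 0.000293) and the IGF-binding protein gene Igfbp5 (log2 fold change -0.40, SE 0.12, adjusted p = 0.0164). Separately, 38 genes had at most 3 counts over the 4 Day 0 libraries and at least 1 CPM under compression, and for 9 of them Day 0 held no count. No gene with at least 1 CPM at Day 0 fell to 3 counts or fewer under compression.

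**Figure D2:**
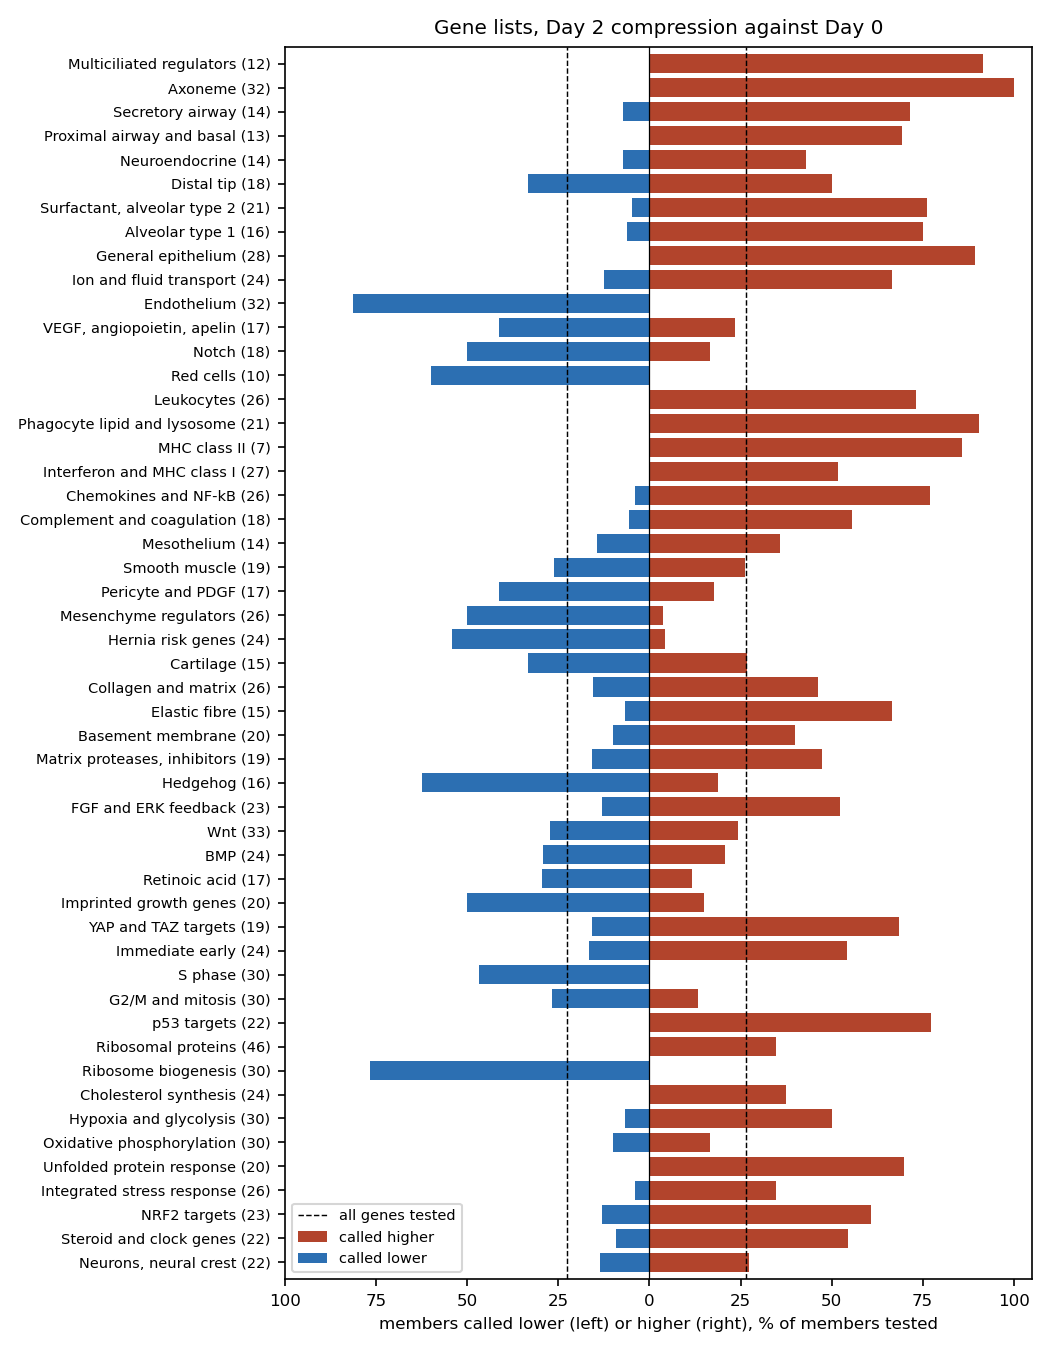
Share of the tested members of each gene list called higher (red, to the right) or lower (blue, to the left) under compression against Day 0, with the number tested in brackets. Dashed lines mark the 26.6% and 22.5% of all genes tested; axoneme genes reach 100% higher, and endothelial and ribosome biogenesis genes reach 81.2% and 76.7% lower.

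Genes of multiciliated airway cells rose, and those of the ciliary axoneme had the highest median fold of the lists examined. These cells carry motile cilia that clear mucus, and in the mouse they appear in the airways after the stage at which the lungs were isolated. Of 32 genes of the axoneme (the microtubule core of the motile cilium), all 32 were called higher, with a median log2 fold change of 5.46, against 0.017 over all genes tested. Of 12 regulators of the multiciliated fate, 11 were called higher and the exception was Rfx3 (log2 fold change -0.13, SE 0.14, adjusted p = 0.441; called without compression replicate 1, adjusted p = 0.047), with a median of 3.53. Setting the genes with no Day 0 count (Foxn4, Meig1) at their lower bounds left both medians as they are. The same 2 lists were called higher for 32 and 9 members in the Day 2 control group against the same Day 0 libraries (background 22.6% higher and 17.6% lower).

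The regulators spanned the whole path to a multiciliated cell. Gmnc and Mcidas, the geminin-family switches that start the program, averaged 0.818 ± 0.227 CPM at Day 0 and 5.94 ± 1.35 CPM under compression (log2 fold change 2.83) and 0.813 ± 0.518 CPM at Day 0 and 16.2 ± 2.22 CPM under compression (log2 fold change 4.23), respectively. Foxj1 (chr11:116330704-116335399, minus strand, in the GENCODE annotation of GRCm38, as for positions below), the master regulator of motile cilia, stood at 0.428, 0.498, 0.734 and 0.958 CPM at Day 0 and at 61.6, 69.7, 64.2 and 56.5 CPM under compression (log2 fold change 6.5, SE 0.41, adjusted p = 3.09e-07). Trp73, a p53-family factor that acts above Foxj1, went from 0.0856, 0.0712, 0.183 and 0.0898 to 11.3, 12, 9.39 and 8.19 CPM (log2 fold change 6.5, SE 0.46, adjusted p = 3.4e-07). All compression libraries lay far above all Day 0 libraries for both. Foxn4, a forkhead factor of the same program, had no read in any Day 0 library and 1199 reads under compression (8.79, 12.6, 11.5 and 8.68 CPM), which makes it at least 321-fold higher against a floor of 3 counts over the group (adjusted p = 6.83e-06). Genes of centriole amplification followed: Ccdc67, the core of the deuterosome, averaged 0.203 ± 0.0507 CPM at Day 0 and 32.8 ± 7.21 CPM under compression (log2 fold change 7.29). Ccno averaged 5.32 ± 1.77 CPM at Day 0 and 24.1 ± 2.63 CPM under compression (log2 fold change 2.19), and Cdc20b had 3 reads at Day 0 and 1825 under compression (ratio 488, 95% counting interval 167 to 2370). Myb, which drives progenitors into the program, averaged 7.06 ± 0.453 CPM at Day 0 and 38.1 ± 7.17 CPM under compression (log2 fold change 2.44).

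RFX factors, which work with Foxj1 at genes of motile cilia, bind the X-box, an inverted repeat whose arms read GTTGCC on one strand and GGCAAC on the other. These letters were searched on both strands in the 250 bases before each RefSeq start site (GRCm38.p6), and they overlap none of the other motifs searched. They were present in 32.3% of 31 promoters of the axoneme list (26 of 32 genes matched) and 33.3% of 15 promoters of the regulator list (11 of 12 matched), against 10.4% of all 32851 promoters. A match is a description of the sequence and not evidence of binding. The following 4 promoters of axoneme genes belong to the genes with the highest fitted folds among those with a match, and they are written 5′ to 3′ on the gene's strand, with the arm in capitals.
Dynlrb2 (chr8:116504765-116505014, + strand): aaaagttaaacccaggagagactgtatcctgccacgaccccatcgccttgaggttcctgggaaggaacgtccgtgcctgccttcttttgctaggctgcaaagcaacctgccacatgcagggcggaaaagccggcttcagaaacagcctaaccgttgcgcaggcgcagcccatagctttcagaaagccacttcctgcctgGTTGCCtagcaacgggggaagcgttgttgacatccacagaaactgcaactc
Ccdc113 (chr8:95533850-95534099, + strand): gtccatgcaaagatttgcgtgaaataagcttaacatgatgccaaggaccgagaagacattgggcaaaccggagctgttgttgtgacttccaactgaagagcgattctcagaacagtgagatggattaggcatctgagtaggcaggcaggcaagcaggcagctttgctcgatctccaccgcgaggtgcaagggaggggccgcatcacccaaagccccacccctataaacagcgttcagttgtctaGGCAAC
Fam183b (chr11:58801961-58802210, - strand): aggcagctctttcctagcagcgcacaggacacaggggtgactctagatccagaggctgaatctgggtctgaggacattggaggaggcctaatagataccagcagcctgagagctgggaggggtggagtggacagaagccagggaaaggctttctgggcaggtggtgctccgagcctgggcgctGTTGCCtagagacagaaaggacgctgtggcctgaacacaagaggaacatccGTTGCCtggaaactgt
Dnaic2 (chr11:114727169-114727418, + strand): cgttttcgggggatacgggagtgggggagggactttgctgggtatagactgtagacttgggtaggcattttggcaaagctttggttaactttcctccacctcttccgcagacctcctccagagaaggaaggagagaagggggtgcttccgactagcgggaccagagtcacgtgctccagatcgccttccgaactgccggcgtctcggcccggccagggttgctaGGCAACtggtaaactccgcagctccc

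The genes behind these promoters moved together. Dynlrb2, a roadblock-type dynein light chain, had 1 read at Day 0 and 1441 under compression (ratio 1157, 95% counting interval 207 to 45720), at 15, 12.7, 13.8 and 8.87 CPM. Ccdc113, a protein of ciliary satellites and axoneme, had 2 and 668 reads (ratio 268, 95% counting interval 73.9 to 2219). Fam183b, found in ciliated cells, averaged 0.0364 ± 0.0433 CPM at Day 0 and 5.53 ± 1.56 CPM under compression (log2 fold change 6.86). Dnaic2, an intermediate chain of the outer dynein arm, went from 0.214, 0.356, 0 and 0.24 to 10.9, 9.3, 9.46 and 6.35 CPM (log2 fold change 5.5, SE 0.58, adjusted p = 8.78e-06). In Dynlrb2 the arm begins 51 bases before the start site, in Ccdc113 6, in Dnaic2 26 and in the nearer copy of Fam183b 16.

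Other parts of the cilium rose as well. The lipid-binding gene Sec14l3 had the largest fitted rise of all genes called with non-overlapping groups: 1 read over Day 0 and 4837 under compression, at 45.7, 48.3, 48 and 26.9 CPM (ratio 3883, 95% counting interval 697 to 153400). Tekt4, a tektin of axonemal microtubules, and Ccdc108, a protein of the central apparatus, had 1 and 2 reads at Day 0 against 750 and 1239 under compression (ratios 602 and 497, 95% counting intervals 108 to 23810 and 137 to 4111). Meig1 and Drc7, a subunit of the dynein regulatory complex, had no Day 0 read and were at least 154-fold higher and at least 78.9-fold higher. Dnah5, a heavy chain of the outer dynein arm, averaged 0.0411 ± 0.0382 CPM at Day 0 and 5.13 ± 4.51 CPM under compression (log2 fold change 6.74). Rsph1, a radial spoke head protein, averaged 0.469 ± 0.0833 CPM at Day 0 and 23.2 ± 8.91 CPM under compression (log2 fold change 5.66). The smallest rise of the list was that of Mns1 (log2 fold change 0.87, SE 0.16, adjusted p = 0.000585), which was already at 9.15 ± 1.42 CPM at Day 0. Also among the 12 largest rises, Lrrc43, Nme9 and Rptoros had no Day 0 read and were at least 47.1-fold higher, at least 36.4-fold higher and at least 54-fold higher, and Ccdc180 had 1 Day 0 read (ratio 367, 95% counting interval 65.5 to 14520). Across the 4 compression libraries the mean level of the axoneme list, on the log2 scale and relative to its Day 0 mean, was 4.87, 4.54, 4.56 and 3.93, with compression replicate 4 the lowest.

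Secretory airway genes also rose. Club cells, the secretory cells of mouse airways, make cytochromes and secretoglobins that detoxify and protect the surface. Of 14 tested genes, 10 were called higher and 1 lower, with a median log2 fold change of 3.68 (3.34 with Gabrp, which had no Day 0 read, at its lower bound). Cyp2f2, the club cell cytochrome P450, stood at 0, 0.0712, 0.275 and 0.928 CPM at Day 0 and at 38.6, 72.3, 67.6 and 37.2 CPM under compression (log2 fold change 7.06, SE 0.53, adjusted p = 1.67e-06). Cbr2, a carbonyl reductase of club cells, went from 0.257, 0.498, 0.825 and 1.14 to 15.4, 31.7, 32.2 and 23.9 CPM (log2 fold change 5.14, SE 0.45, adjusted p = 2.96e-06). Scgb3a2, an early secretoglobin, averaged 4.87 ± 4.64 CPM at Day 0 and 143 ± 43.7 CPM under compression (log2 fold change 4.77). The haptoglobin gene Hp averaged 0.551 ± 0.235 CPM at Day 0 and 11 ± 2.46 CPM under compression (log2 fold change 4.29). Cyp2f2 was lower in compression replicates 1 and 4 than in replicates 2 and 3, yet each of the 4 exceeded every Day 0 library. The antimicrobial lectin Reg3g had 3 reads at Day 0 and 486 under compression (ratio 130.1, 95% counting interval 44.2 to 633). Scgb1a1, the secretoglobin of mature club cells, stayed below the testing filter, with 0 reads at Day 0 and 20 under compression. The goblet cell genes Muc5ac (log2 fold change 0.093, SE 0.63, adjusted p = 0.916) and Spdef (log2 fold change 0.19, SE 0.42, adjusted p = 0.728) did not pass the test, and Bpifb1, a secreted airway protein, fell from 9.41, 8.11, 3.39 and 2.94 to 0.609, 0.909, 1.18 and 0.745 CPM (log2 fold change -2.77, SE 0.40, adjusted p = 7.46e-05).

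Among 13 genes of the proximal airway and its basal cells, 9 were called higher and 0 lower, with a median of 1.21. The keratin Krt4 (0.0529 ± 0.0621 CPM at Day 0 and 1.65 ± 0.537 CPM under compression, log2 fold change 4.6), the airway cytochrome Cyp2s1 (7.49 ± 1.78 CPM at Day 0 and 44.2 ± 1.61 CPM under compression, log2 fold change 2.55) and the water channel Aqp3 (0.336 ± 0.0892 CPM at Day 0 and 2.42 ± 0.526 CPM under compression, log2 fold change 2.84) had the largest folds. Trp63, the master factor of basal cells, stood at 1.03, 2.49, 2.48 and 2.9 CPM and then at 2.81, 4.62, 4.7 and 3.37 CPM (log2 fold change 0.80, SE 0.28, adjusted p = 0.03; call lost without Day 0 replicate 1 or 3 or compression replicate 2 or 3, adjusted p = 0.0522 to 0.0973; call lost with compression replicates 2 and 3 summed, adjusted p = 0.091), with groups that overlapped. The basal keratin Krt5 had 4 reads at Day 0 and 13 under compression and was not tested, and Sox2, the factor of the proximal tree, did not pass the test (log2 fold change 0.37, SE 0.18, adjusted p = 0.102). In the neuroendocrine list 6 of 14 genes were called higher and 1 lower (median 0.39), and with only genes of at least 1 CPM in 4 libraries tested the first count was 3. The secretory granule genes Scg2 (0.127 ± 0.0867 CPM at Day 0 and 1.04 ± 0.356 CPM under compression, log2 fold change 2.95) and Pcsk1 (0.0785 ± 0.0771 CPM at Day 0 and 0.737 ± 0.243 CPM under compression, log2 fold change 2.91) rose, as did Ddc, which makes amine transmitters (9.8 ± 1.56 CPM at Day 0 and 20.3 ± 1.92 CPM under compression, log2 fold change 1.05). The peptide gene Calca fell (log2 fold change -1.24, SE 0.35, adjusted p = 0.00945).

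At the distal end of the tree, tip genes changed in both directions and most listed genes of alveolar cells rose. Hmga2, Lin28b, Sox9 and Id2 were among the tip genes that fell. The list of distal tip genes was split, with 9 of 18 called higher and 6 lower (median 0.16). Hmga2 (chr10:120361275-120476469, minus strand), a chromatin protein of fetal progenitors, fell from 418, 331, 264 and 205 CPM to 79.9, 67, 67.8 and 74.1 CPM (log2 fold change -2.07, SE 0.18, adjusted p = 2.02e-06), with no overlap between groups and a wider spread at Day 0. Its partner in keeping early developmental timing, Lin28b, averaged 4.29 ± 0.188 CPM at Day 0 and 1.37 ± 0.235 CPM under compression (log2 fold change -1.65). Sox9 and Id2, the tip markers, fell by less: Sox9 went from 133, 132, 123 and 131 to 119, 99.7, 89.9 and 118 CPM (log2 fold change -0.28, SE 0.084, adjusted p = 0.0136) and Id2 averaged 169 ± 24.6 CPM at Day 0 and 130.0 ± 7.3 CPM under compression (log2 fold change -0.38). The FGF target Etv4 (log2 fold change -0.52, SE 0.18, adjusted p = 0.0265; call lost without Day 0 replicate 4 or compression replicate 2, adjusted p = 0.0525 to 0.0691) and the ligand Wnt7b (log2 fold change -0.40, SE 0.11, adjusted p = 0.00612) also fell, while Etv5 did not pass the test (log2 fold change 0.027, SE 0.15, adjusted p = 0.894). Nkx2-1, the lung fate factor, rose (log2 fold change 0.48, SE 0.078, adjusted p = 0.000233), as did the tip ligands Shh (log2 fold change 0.58, SE 0.088, adjusted p = 0.000121) and Bmp4 (log2 fold change 0.42, SE 0.14, adjusted p = 0.0262; call lost without Day 0 replicate 1 or 2 or compression replicate 2, 3 or 4, adjusted p = 0.075 to 0.104; call lost with compression replicates 2 and 3 summed, adjusted p = 0.0809) and the protease Ctsh (17.3 ± 6.01 CPM at Day 0 and 128 ± 29.4 CPM under compression, log2 fold change 2.87).

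Surfactant is the lipid and protein film that alveolar type 2 cells secrete to keep air spaces open. Of 21 genes in the surfactant and type 2 list, 16 were called higher and 1 lower, with a median log2 fold change of 1.45. The lower count was 2 without Day 0 replicate 1, Day 0 replicate 2 or compression replicate 4. Sftpc (chr14:70520949-70524081, minus strand), the most specific type 2 gene, stood at 48.5, 58.1, 92.9 and 92.3 CPM at Day 0 and at 677, 1194, 1230 and 968 CPM under compression (log2 fold change 3.8, SE 0.27, adjusted p = 7.82e-07). Compression replicate 1 was the lowest of its group and still held more than any Day 0 library by a wide margin. Slc34a2, the phosphate transporter of type 2 cells, averaged 0.487 ± 0.687 CPM at Day 0 and 46.7 ± 23.6 CPM under compression (log2 fold change 6.24). Sftpb averaged 30.5 ± 27 CPM at Day 0 and 172 ± 83.5 CPM under compression (log2 fold change 2.46). Lamp3, a lamellar body membrane protein, averaged 10.8 ± 7.63 CPM at Day 0 and 50.8 ± 15.3 CPM under compression (log2 fold change 2.19). Abca3, which loads surfactant lipid into lamellar bodies, averaged 59 ± 18.3 CPM at Day 0 and 129.5 ± 20.1 CPM under compression (log2 fold change 1.13). Cebpa, a type 2 transcription factor, averaged 16.5 ± 6.12 CPM at Day 0 and 37.3 ± 8.77 CPM under compression (log2 fold change 1.17). Sftpa1 did not pass the test: its values were 4.92, 5.34, 12.7 and 24.8 CPM at Day 0 and 8.4, 21.2, 19.2 and 15.2 CPM under compression (log2 fold change 0.39, SE 0.49, adjusted p = 0.532). Sftpd had no read at Day 0 and 45 under compression, which is below the testing filter. Type 1 cells form the thin gas-exchange surface, and of their 16 list genes 12 were called higher and 1 lower (median 1.86). The list shares Ager, Hopx, Cldn18 and Aqp5 with the surfactant list. Hopx, a type 1 cofactor, went from 7.02, 8.61, 5.55 and 4.13 to 33.2, 56.8, 57.9 and 62 CPM (log2 fold change 3.09, SE 0.22, adjusted p = 6.25e-07). The receptor gene Ager averaged 19.8 ± 0.692 CPM at Day 0 and 108 ± 29.2 CPM under compression (log2 fold change 2.46). The channel-like Clic5 averaged 5.16 ± 2.36 CPM at Day 0 and 59.2 ± 15.6 CPM under compression (log2 fold change 3.5). Aqp5, the water channel of mature type 1 cells, was the gene that fell (log2 fold change -1.16, SE 0.26, adjusted p = 0.00218).

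General epithelial genes rose by smaller factors. Of 28 genes, 25 were called higher and 0 lower, with a median of 0.77. Epcam, a surface protein shared by lung epithelial cells, went from 209.5, 204, 229.5 and 229 to 298, 312, 313 and 305 CPM (log2 fold change 0.49, SE 0.067, adjusted p = 4.91e-05). The junction protein E-cadherin (Cdh1) averaged 213 ± 29.6 CPM at Day 0 and 431 ± 9.06 CPM under compression (log2 fold change 1.02) and the simple keratins Krt8 and Krt19 rose by 1.03 and 1.81 on the log2 scale. Fetal lung epithelium secretes chloride and fluid and turns to sodium uptake around birth. Of 24 ion and fluid transport genes, 16 were called higher and 3 lower (median 0.93). Aqp5, Clcn2 and Piezo2 were called lower. All 3 subunits of the epithelial sodium channel rose: Scnn1a averaged 2.65 ± 0.674 CPM at Day 0 and 13.8 ± 2.1 CPM under compression (log2 fold change 2.34). Scnn1b averaged 4.05 ± 0.694 CPM at Day 0 and 18.7 ± 2.05 CPM under compression (log2 fold change 2.22). Scnn1g averaged 7.85 ± 3.01 CPM at Day 0 and 33.2 ± 4.15 CPM under compression (log2 fold change 2.1). On the chloride side, the calcium-activated channel Ano1 (log2 fold change 1.46, SE 0.11, adjusted p = 3.42e-07) and the co-transporter Slc12a2 (log2 fold change 0.82, SE 0.13, adjusted p = 0.000165) rose, and Cftr did not pass the test (log2 fold change 0.39, SE 0.26, adjusted p = 0.236; called without Day 0 replicate 4, adjusted p = 0.0286). The stretch-gated channel Piezo2 fell (log2 fold change -0.98, SE 0.14, adjusted p = 7.23e-05) and Piezo1 did not pass the test (log2 fold change 0.044, SE 0.10, adjusted p = 0.732).

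**Figure D3:**
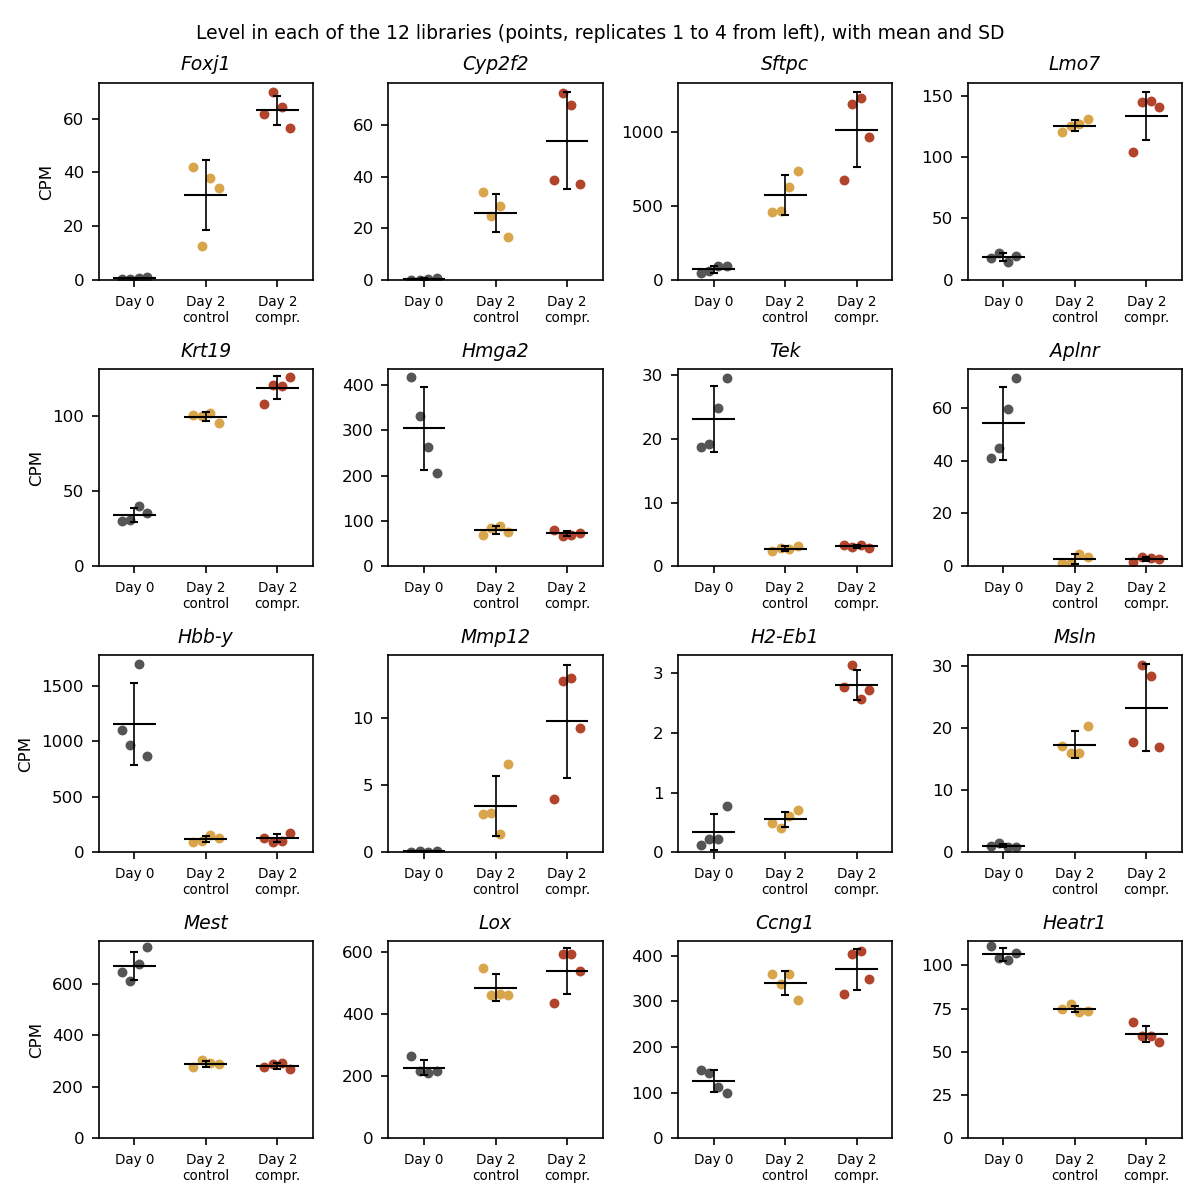
Level in CPM (vertical axes, linear from 0) of 16 genes in every library, with Day 0 in grey, Day 2 control in yellow and Day 2 compression in red; horizontal bars are group means and whiskers the SD (n = 4). The compression points lie wholly above Day 0 for Foxj1, Cyp2f2, Sftpc, Lmo7, Krt19, Mmp12, H2-Eb1, Msln, Lox and Ccng1, and wholly below it for Hmga2, Tek, Aplnr, Hbb-y, Mest and Heatr1.

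Blood vessel genes fell together. Of 32 endothelial genes, 26 were called lower and 0 higher, and the median log2 fold change was -1.79. The summed level of the list was 900.2 to 1373 CPM at Day 0 and 393 to 445 CPM under compression, so the groups did not overlap. Aplnr (chr2:85136225-85139923, plus strand), the apelin receptor of growing veins and sprouts, stood at 40.9, 44.8, 59.7 and 71.3 CPM at Day 0 and at 1.45, 3.53, 3.01 and 2.53 CPM under compression (log2 fold change -4.36, SE 0.41, adjusted p = 6.11e-06). Tek, the angiopoietin receptor, went from 18.8, 19.2, 24.9 and 29.6 to 3.35, 3.04, 3.31 and 2.82 CPM (log2 fold change -2.89, SE 0.16, adjusted p = 3.61e-08). Cdh5, the cadherin of endothelial junctions, averaged 94 ± 19 CPM at Day 0 and 16 ± 2.27 CPM under compression (log2 fold change -2.56). Pecam1, a pan-endothelial adhesion molecule, averaged 63.1 ± 11.3 CPM at Day 0 and 13.3 ± 2.71 CPM under compression (log2 fold change -2.25). Sox17, a factor of arterial endothelium, and Nos3, the endothelial nitric oxide synthase, were among the 12 largest falls (-3.04 and -3.04 on the log2 scale). The 6 endothelial genes that did not pass the test were Gpihbp1, Prox1, Vwf, Flt4, Eng and Lyve1, of which Prox1, Flt4 and Lyve1 are known from lymphatic vessels (log2 fold changes -0.59, -0.47, -0.43, -0.34, 0.074 and 0.083). In Day 0 libraries, which carried the larger SD in CPM for Aplnr and Tek, replicate 4 was the highest for both. On the log2 scale, relative to Day 0, the list level spanned -0.285 to 0.404 at Day 0 and -2.216 to -1.557 under compression.

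Ligands and receptors of vessel growth differed. The list of VEGF, angiopoietin and apelin genes had 7 of 17 members called lower and 4 higher (median -0.34), and it shares Aplnr, Tek, Tie1, Kdr, Flt1 and Flt4 with the endothelial list. Called higher were Angpt2, Apela, Figf and Nrp2. Vegfa, the main ligand, did not pass the test: it stood at 467, 424, 249.8 and 296 CPM at Day 0 and at 408, 399.9, 414 and 417 CPM under compression (log2 fold change 0.19, SE 0.15, adjusted p = 0.311). Its receptor Kdr fell from 70.4, 76.7, 100.5 and 138 to 37.8, 31, 34.3 and 25.6 CPM (log2 fold change -1.59, SE 0.21, adjusted p = 4.9e-05), and Flt1, which also binds Vegfa, averaged 13.1 ± 5.05 CPM at Day 0 and 1.91 ± 0.729 CPM under compression (log2 fold change -2.77). The placental growth factor gene Pgf fell (log2 fold change -0.93, SE 0.12, adjusted p = 3.37e-05) and Figf, which encodes VEGF-D, rose (23.1 ± 10.9 CPM at Day 0 and 73.4 ± 8.22 CPM under compression, log2 fold change 1.65). Angpt1, the ligand that activates Tek, did not pass the test (log2 fold change 0.10, SE 0.10, adjusted p = 0.453). Angpt2 rose (log2 fold change 0.45, SE 0.12, adjusted p = 0.00632). Among 18 Notch pathway genes 9 were called lower and 3 higher (median -0.45). Calls in the higher direction belonged to Hes1, Lfng and Nrarp. The receptor Notch4 and the ligand Dll4, both known from endothelium, averaged 27.3 ± 9.99 CPM at Day 0 and 4.22 ± 1.33 CPM under compression (log2 fold change -2.69) and 29.2 ± 8.45 CPM at Day 0 and 11 ± 2.87 CPM under compression (log2 fold change -1.41). The receptor Notch1 did not pass the test (log2 fold change -0.027, SE 0.11, adjusted p = 0.862). The target Hes1 rose (log2 fold change 0.43, SE 0.08, adjusted p = 0.00058).

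Red cell genes fell, with a lower median fold than the vessel genes. Of 10 genes tested, 6 were called lower and 0 higher, with a median of -3.39, and summed over the 16 genes present in the table the list went from 1082 to 2251 CPM at Day 0 to 119 to 216 CPM. Hbb-y (chr7:103851749-103853216, minus strand), an embryonic beta-like globin, stood at 1105, 971, 1698 and 870.3 CPM and then at 132, 94.3, 98.9 and 172 CPM (log2 fold change -3.22, SE 0.27, adjusted p = 2.04e-06). Hba-x, the embryonic alpha-like globin, averaged 279 ± 115 CPM at Day 0 and 23.9 ± 9.29 CPM under compression (log2 fold change -3.55). Hbb-bh1 averaged 49.4 ± 21.1 CPM at Day 0 and 3.92 ± 2.2 CPM under compression (log2 fold change -3.65). Slc4a1, the anion exchanger of the red cell membrane, had the largest fall of the genes called with non-overlapping groups and at least 1 CPM in the higher group: 18.4, 23.3, 24.4 and 14.3 CPM at Day 0 and 0.799, 0.699, 0.574 and 0.777 CPM under compression (log2 fold change -4.81, SE 1.21, adjusted p = 0.00764). Alas2, the red cell enzyme of heme synthesis, averaged 21.3 ± 4 CPM at Day 0 and 1.4 ± 0.278 CPM under compression (log2 fold change -3.91). The 3 other large falls, of Rfx6 (1.13 ± 0.307 CPM at Day 0 and 0.0688 ± 0.0275 CPM under compression, log2 fold change -3.91), Pcsk2os2 (1.07 ± 0.448 CPM at Day 0 and 0.0769 ± 0.0305 CPM under compression, log2 fold change -3.74) and Baalc (1.33 ± 0.241 CPM at Day 0 and 0.169 ± 0.0909 CPM under compression, log2 fold change -2.9), belong to no list, and Rfx6 is known as an endocrine factor of the pancreas and gut. The globin genes are similar in sequence, so reads could be shared between them. The red cell and endothelial lists fell side by side, and the part of 1 in the other was not tested.

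Genes of macrophages and of their lipid and lysosome machinery rose. Of 26 leukocyte genes, 19 were called higher and 0 lower (median 1.07), and their summed level was 441 to 513 CPM at Day 0 and 820.2 to 1017 CPM under compression. Cd53, a tetraspanin of blood cells, went from 9.41, 6.55, 8.62 and 8.78 to 24.1, 26.6, 27.1 and 20.2 CPM (log2 fold change 1.54, SE 0.12, adjusted p = 6.44e-07), and Cd68, a lysosomal protein of macrophages, averaged 21.8 ± 2.66 CPM at Day 0 and 60.3 ± 10.5 CPM under compression (log2 fold change 1.47). Lyz2, the macrophage lysozyme that type 2 cells also make, averaged 20.6 ± 2.79 CPM at Day 0 and 137 ± 33.2 CPM under compression (log2 fold change 2.74). General macrophage genes did not all rise: the receptor Csf1r stood at 36.5, 36.5, 40.4 and 43.2 CPM and at 38.1, 47.9, 47.2 and 38.9 CPM (log2 fold change 0.13, SE 0.13, adjusted p = 0.419). The complement subunit C1qb did not pass the test either (log2 fold change -0.0037, SE 0.13, adjusted p = 0.985). Of 21 phagocyte lipid and lysosome genes, 19 were called higher and 0 lower (median 1.22). Mmp12 (chr9:7344381-7369499, plus strand), the macrophage elastase, stood at 0, 0.0712, 0.0459 and 0.0898 CPM at Day 0 and at 3.96, 12.8, 13 and 9.26 CPM under compression (log2 fold change 7.38, SE 0.74, adjusted p = 6.66e-06). Spp1 (osteopontin) averaged 58.8 ± 17.9 CPM at Day 0 and 607 ± 243 CPM under compression (log2 fold change 3.37). Gpnmb, a glycoprotein of lipid-laden macrophages, averaged 79.1 ± 26.9 CPM at Day 0 and 665 ± 269.5 CPM under compression (log2 fold change 3.07). The galectin gene Lgals3 averaged 15.7 ± 2.98 CPM at Day 0 and 76.1 ± 17 CPM under compression (log2 fold change 2.26). Compression replicate 1 was the lowest of its group for Mmp12 and lay above Day 0 there. Cathepsins Ctsb (log2 fold change 0.94, SE 0.12, adjusted p = 3.32e-05) and Ctsd (log2 fold change 1.22, SE 0.19, adjusted p = 0.000191), which many cells make, rose by less.

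Antigen presentation genes rose from low levels. MHC class II molecules display peptides on dendritic cells, macrophages and B cells, and type 2 cells can carry them too. Of 7 genes, 6 were called higher and 0 lower, with a median of 2.9, and in the control group 2 were called higher against Day 0. H2-Eb1 (chr17:34305867-34316674, plus strand) stood at 0.128, 0.213, 0.229 and 0.779 CPM at Day 0 and at 2.78, 3.15, 2.57 and 2.72 CPM under compression (log2 fold change 2.9, SE 0.39, adjusted p = 4.79e-05). The invariant chain Cd74 went from 1.5, 1.21, 1.33 and 2.04 to 7.04, 5.7, 5.68 and 6.02 CPM (log2 fold change 1.98, SE 0.41, adjusted p = 0.00154). Their activator Ciita averaged 0.0477 ± 0.0586 CPM at Day 0 and 0.919 ± 0.241 CPM under compression (log2 fold change 4.01). All compression libraries lay above all Day 0 libraries for H2-Eb1 and Cd74. H2-DMa did not pass the test (log2 fold change 0.24, SE 0.15, adjusted p = 0.189). The leukocyte list rose in the same libraries, with the summed levels given above, and its part in the class II rise was not tested.

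For interferon-induced and MHC class I genes, compression replicate 1 stood apart. Of 27 genes, 14 were called higher and 0 lower (median 1.24), and the mean level of the list relative to Day 0 was 2.07, 0.79, 0.75 and 0.43 in compression replicates 1 to 4, where Day 0 replicates themselves spanned -0.54 to 0.68. Without compression replicate 1 13 members were called higher and 1 lower. Irf7, the factor that amplifies interferon, stood at 0.898, 2.21, 0.55 and 0.869 CPM and then at 13.3, 2.66, 2.2 and 1.46 CPM (log2 fold change 2.18, SE 0.72, adjusted p = 0.0242), and without that library its log2 fold change was 0.94 (adjusted p = 0.123). Its call was also lost without Day 0 replicate 1, 3 or 4 (adjusted p = 0.0588, 0.0649 and 0.0592). The class I light chain B2m did not rest on it: the values were 83, 79.2, 77.3 and 78.4 CPM and 214, 149.6, 159 and 147 CPM (log2 fold change 1.07, SE 0.10, adjusted p = 3.4e-06; 0.91 without compression replicate 1, adjusted p = 4.31e-07). Tap1, the peptide transporter of class I loading, averaged 3.87 ± 1 CPM at Day 0 and 16.6 ± 2.46 CPM under compression (log2 fold change 2.11). Of 26 chemokine and NF-kB genes, 20 were called higher and 1 lower (median 1.71; 17 higher without compression replicate 1). Icam1, an adhesion molecule for leukocytes, went from 20.8, 22.4, 21.5 and 20.9 to 65.8, 96.7, 101 and 98.6 CPM (log2 fold change 2.08, SE 0.21, adjusted p = 6.98e-06). The cytokine Lif averaged 0.173 ± 0.0394 CPM at Day 0 and 1.47 ± 0.413 CPM under compression (log2 fold change 3.05). Saa3, an acute phase protein, stood at 0.257, 0.569, 0.229 and 0.689 CPM and at 89.8, 1.12, 1.76 and 0.777 CPM (log2 fold change 5.69, SE 1.86, adjusted p = 0.0285), so 1 library carried nearly all of its rise; without it the log2 fold change was 1.43 (adjusted p = 0.116), and the call was also lost without any 1 of the Day 0 libraries (adjusted p = 0.0608 to 0.0686). Cxcl12, a chemokine made by mesenchyme, was the gene that fell (log2 fold change -1.03, SE 0.09, adjusted p = 1.49e-06). In the complement and coagulation list 10 of 18 were called higher and 1 lower, which was Plat (median 1.33). C2 rose (2.14 ± 0.544 CPM at Day 0 and 10.4 ± 1.26 CPM under compression, log2 fold change 2.31), and C3, at 0.813, 1.21, 0.917 and 1.2 CPM and then 60.4, 7.06, 6.69 and 6.12 CPM, did not pass the test (log2 fold change 4.27, SE 1.66, adjusted p = 0.0569; called without Day 2 control replicate 4, adjusted p = 0.00348).

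Genes of the lung surface and of the mesenchyme were mixed or lower. Mesothelium covers the lung, and 5 of its 14 list genes were called higher and 2 lower (median 0.087; 4 lower without compression replicate 1). Efemp1, Gpm6a, Krt19, Msln and Upk1b made up the higher calls. Calb2 and Podxl accounted for the lower count. Msln (mesothelin) went from 1.03, 1.5, 0.917 and 0.809 to 17.8, 30.2, 28.4 and 16.9 CPM (log2 fold change 4.52, SE 0.24, adjusted p = 3.53e-08). The matrix protein Efemp1 averaged 3.92 ± 1.27 CPM at Day 0 and 20.2 ± 3.04 CPM under compression (log2 fold change 2.38). The identity genes Wt1 (log2 fold change 0.12, SE 0.11, adjusted p = 0.396) and Upk3b (log2 fold change -0.21, SE 0.21, adjusted p = 0.43) did not pass the test, and the calcium-binding Calb2 fell (log2 fold change -1.82, SE 0.16, adjusted p = 1.67e-06). Among 19 smooth muscle genes 5 were called higher and 5 lower (median -0.086), with 3 higher when compression replicates 2 and 3 were summed or when compression replicate 4 was left out. The share of 26.3% in each direction is near the 26.6% higher and 22.5% lower of all genes tested. Those called higher were Hhip, Lmod1, Mylk, Tagln and Tpm1. Actg2, Foxf1, Myocd, Smtn and Tpm2 were called lower. Gamma-2 actin (Actg2) fell (log2 fold change -0.82, SE 0.15, adjusted p = 0.000518), the contractile Acta2 did not pass the test (log2 fold change -0.18, SE 0.13, adjusted p = 0.268) and Tagln rose (log2 fold change 0.62, SE 0.14, adjusted p = 0.00251). Pericytes wrap small vessels, and 7 of 17 genes of pericytes and PDGF signalling were called lower and 3 higher (median -0.51). Called higher were Pdgfa, Pdgfd and Postn. The receptor Pdgfrb went from 126, 136, 169 and 201 to 65.6, 59.2, 58.6 and 71 CPM (log2 fold change -1.31, SE 0.17, adjusted p = 3.72e-05). The epithelial ligand Pdgfa averaged 20.0 ± 1.49 CPM at Day 0 and 47.8 ± 5.47 CPM under compression (log2 fold change 1.26).

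Transcription factors of the lung mesenchyme fell in part. Of 26 such genes 13 were called lower and 1 higher (median -0.31). Foxf1, the Hedgehog-dependent factor of lung mesenchyme, went from 176, 192, 152 and 141 to 121, 118, 115 and 127 CPM (log2 fold change -0.46, SE 0.093, adjusted p = 0.00113). Tbx5 averaged 257 ± 17.7 CPM at Day 0 and 177 ± 10.8 CPM under compression (log2 fold change -0.54). Hoxa5 (log2 fold change -0.80, SE 0.086, adjusted p = 7.62e-06) and Zeb1 (log2 fold change -0.75, SE 0.083, adjusted p = 9.76e-06) fell as well, whereas Tbx4 (log2 fold change -0.047, SE 0.10, adjusted p = 0.707) and Tcf21 (log2 fold change -0.14, SE 0.09, adjusted p = 0.221) did not pass the test. The gene called higher was Twist1 (log2 fold change 0.62, SE 0.25, adjusted p = 0.0488; call lost without Day 0 replicate 1, 2 or 3 or compression replicate 1, 2 or 4, adjusted p = 0.0614 to 0.146; call lost with compression replicates 2 and 3 summed, adjusted p = 0.0692). Hedgehog signals from epithelium to mesenchyme, and of 16 pathway genes 10 were called lower and 3 higher (median -0.36). Calls in the higher direction belonged to Hhip, Shh and Sostdc1. The transcription factors Gli1, Gli2 and Gli3 averaged 158 ± 30.8 CPM at Day 0 and 93.6 ± 4.14 CPM under compression (log2 fold change -0.75), 74.3 ± 9.46 CPM at Day 0 and 42.9 ± 4.68 CPM under compression (log2 fold change -0.79) and 219 ± 28.6 CPM at Day 0 and 126 ± 8.18 CPM under compression (log2 fold change -0.80), in that order. The receptor and target Ptch1 fell (log2 fold change -0.20, SE 0.067, adjusted p = 0.0253; call lost without Day 0 replicate 2, adjusted p = 0.0577). The ligand Shh (log2 fold change 0.58, SE 0.088, adjusted p = 0.000121) and the inhibitor and target Hhip (log2 fold change 0.57, SE 0.078, adjusted p = 5.48e-05) rose. Genes in which variants are linked to congenital diaphragmatic hernia were listed because the title of the study names that defect, and 13 of 24 were called lower and 1 higher (median -0.25). Stra6, the vitamin A transporter, went from 18.3, 21.9, 21.6 and 15.4 to 3.69, 4.09, 3.99 and 4.18 CPM (log2 fold change -2.27, SE 0.13, adjusted p = 7.1e-08), and the gene that rose was the lysyl oxidase Lox.

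Matrix genes rose more often than they fell. Of 26 genes of collagens and associated matrix, 12 were called higher and 4 lower (median 0.26). Col5a1, Fbln2, Thbs1 and Vcan made up the lower calls. Small leucine-rich proteoglycans were among the genes called higher: osteoglycin (Ogn) averaged 12.9 ± 1.75 CPM at Day 0 and 83.3 ± 22.8 CPM under compression (log2 fold change 2.68). Asporin (Aspn) averaged 2.55 ± 2.47 CPM at Day 0 and 28 ± 7.65 CPM under compression (log2 fold change 3.34). Decorin (Dcn) averaged 58.5 ± 8.98 CPM at Day 0 and 134 ± 14.8 CPM under compression (log2 fold change 1.2). Tnc, a tenascin of remodelling tissue, averaged 40.2 ± 15.1 CPM at Day 0 and 124 ± 8.5 CPM under compression (log2 fold change 1.61). Vcan, the versican of early mesenchyme, averaged 1103 ± 234 CPM at Day 0 and 570.0 ± 96.1 CPM under compression (log2 fold change -0.95). The type I collagen genes Col1a1 (log2 fold change 0.048, SE 0.14, adjusted p = 0.796) and Col1a2 (log2 fold change -0.071, SE 0.082, adjusted p = 0.497) did not pass the test. Elastic fibres later let the lung recoil, and of 15 genes 10 were called higher and 1 lower (median 0.41), the latter count being 2 without Day 0 replicate 1 and 3 without compression replicate 4. Elastin (Eln) averaged 373 ± 87.7 CPM at Day 0 and 680.0 ± 165 CPM under compression (log2 fold change 0.87). Lox, which crosslinks elastin and collagen, went from 263, 216, 211 and 217 to 435, 592, 592 and 537 CPM (log2 fold change 1.25, SE 0.11, adjusted p = 1.26e-06), and Fbln5, which guides elastin onto fibrils, from 18.3, 22.4, 24.3 and 21.9 to 46.8, 73.5, 74.2 and 60.5 CPM (log2 fold change 1.55, SE 0.13, adjusted p = 1.41e-06). The gene that fell was the TGF-beta binding protein Ltbp1 (log2 fold change -0.67, SE 0.14, adjusted p = 0.00147), while Ltbp2 rose (11.2 ± 4.41 CPM at Day 0 and 73.3 ± 6.7 CPM under compression, log2 fold change 2.68).

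Basement membrane genes changed in both directions. Of 20 genes 8 were called higher and 2 lower (median 0.34), with 6 lower when Day 0 replicate 1 was left out. Lama1 and Nid2 accounted for the lower count. The embryonic laminin chain Lama1 fell from 34.7, 38.9, 50.6 and 56.7 to 12.7, 8.85, 7.91 and 7.8 CPM (log2 fold change -2.29, SE 0.17, adjusted p = 6.25e-07). The type IV collagen chains of later epithelial membranes rose: Col4a3 averaged 4.33 ± 0.69 CPM at Day 0 and 17.1 ± 3.75 CPM under compression (log2 fold change 1.99). Col4a4 averaged 15.5 ± 3.17 CPM at Day 0 and 56.2 ± 7.07 CPM under compression (log2 fold change 1.85). The epithelial laminin chain Lamb3 rose too (log2 fold change 1.48, SE 0.14, adjusted p = 2.96e-06). Of 19 matrix proteases and their inhibitors 9 were called higher and 3 lower (median 0.14), and 1 was lower without Day 0 replicate 3, Day 0 replicate 4 or compression replicate 2. Those called lower were Adamts9, Mmp14 and Plat. Besides Mmp12, the plasminogen activator Plau rose (23.5 ± 6.01 CPM at Day 0 and 85 ± 30.0 CPM under compression, log2 fold change 1.85) and the activator Plat fell (50.3 ± 5.87 CPM at Day 0 and 17.1 ± 2.12 CPM under compression, log2 fold change -1.55). Cartilage genes, which mark the tracheal and bronchial rings, were mixed, with 4 of 15 called higher and 5 lower (median 0.16). These shares were 26.7% and 33.3%, against 26.6% and 22.5% of all genes tested. Col2a1 fell (log2 fold change -0.80, SE 0.18, adjusted p = 0.00258). Chad, Epyc, Lect1 and Matn3 were called higher. Called lower were Acan, Col2a1, Col9a1, Hapln1 and Sox9. Their summed level was 575 to 716 CPM at Day 0 and 472 to 560.2 CPM under compression.

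Genes of growth factor pathways were mixed. Of 23 FGF and ERK feedback genes, 12 were called higher and 3 lower (median 0.24), the lower count being 6 without Day 0 replicate 1 and 1 without Day 0 replicate 4. Calls in the lower direction belonged to Dusp5, Etv4 and Fgfr1. Fgf10, the mesenchymal ligand that drives branching, averaged 42.6 ± 7.16 CPM at Day 0 and 67.2 ± 5.22 CPM under compression (log2 fold change 0.65), and Fgf7, which favours epithelial growth, went from 0.813, 0.925, 1.65 and 1.5 to 5.32, 8.46, 9.15 and 5.28 CPM (log2 fold change 2.5, SE 0.28, adjusted p = 1.13e-05). The carrier protein Fgfbp1 averaged 3.6 ± 0.613 CPM at Day 0 and 22.5 ± 2.93 CPM under compression (log2 fold change 2.67). The epithelial receptor Fgfr2 rose (log2 fold change 0.24, SE 0.057, adjusted p = 0.00338). The receptor Fgfr1 fell (log2 fold change -0.51, SE 0.073, adjusted p = 8.61e-05), and the feedback inhibitors Spry1 (log2 fold change 1.01, SE 0.16, adjusted p = 0.000158) and Spry2 (log2 fold change 0.61, SE 0.15, adjusted p = 0.00375) rose. Wnt genes were split, with 8 of 33 called higher and 9 lower (median -0.087). These shares, 24.2% and 27.3%, are near the 26.6% and 22.5% of all genes tested. Lef1, a transcription factor of the pathway, went from 56.9, 62.1, 61.9 and 56.4 to 33.8, 27.9, 26.8 and 34.2 CPM (log2 fold change -0.95, SE 0.11, adjusted p = 1.74e-05). The mesenchymal ligand Wnt2 fell (log2 fold change -0.56, SE 0.10, adjusted p = 0.000469). The non-canonical ligand Wnt5a rose (log2 fold change 0.75, SE 0.079, adjusted p = 6.47e-06). The target Axin2 did not pass the test (log2 fold change 0.23, SE 0.093, adjusted p = 0.0561; called without compression replicate 1, adjusted p = 0.0316).

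Among 24 BMP genes 5 were called higher and 7 lower (median -0.09), and 3 were higher with compression replicates 2 and 3 summed or without Day 0 replicate 1, compression replicate 2 or compression replicate 3. With all libraries the shares were 20.8% higher and 29.2% lower, near the 26.6% and 22.5% of all genes tested. Among those called higher were Bmp3, Bmp4, Bmp5 and Id4. The antagonist Chrdl1 averaged 9.92 ± 2.02 CPM at Day 0 and 2.26 ± 0.445 CPM under compression (log2 fold change -2.14). The ligand Bmp5 averaged 83.7 ± 8.06 CPM at Day 0 and 130.1 ± 11.9 CPM under compression (log2 fold change 0.64). The target Id1 did not pass the test (log2 fold change 0.28, SE 0.17, adjusted p = 0.182). Retinoic acid is made from vitamin A and shapes early lung growth, and 5 of 17 genes were called lower and 2 higher (median -0.10). The shares were 29.4% lower and 11.8% higher, against 22.5% and 26.6% of all genes tested. Without Day 0 replicate 2, 3 were lower, and without Day 0 replicate 1, compression replicate 2 or compression replicate 4, 1 was higher. Aldh1a1 and Tgm2 accounted for the higher count. Those called lower were Crabp2, Cyp26b1, Rara, Rxrg and Stra6. Beside Stra6, the retinoid-binding Crabp2 (12.8 ± 1.99 CPM at Day 0 and 4.9 ± 0.531 CPM under compression, log2 fold change -1.38) and the degrading enzyme Cyp26b1 (log2 fold change -0.91, SE 0.11, adjusted p = 2.01e-05) fell. Aldh1a2, the main enzyme that makes retinoic acid in the fetal lung, did not pass the test (log2 fold change -0.38, SE 0.19, adjusted p = 0.117; called without Day 0 replicate 4 or compression replicate 1, adjusted p = 0.0399 to 0.049). Aldh1a1 rose (log2 fold change 1.48, SE 0.32, adjusted p = 0.00245).

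Imprinted genes of fetal growth and genes of DNA replication were called lower more often than higher. Of 20 imprinted genes, which carry growth control in the fetus, 10 were called lower and 3 higher (median -0.34). Mest (chr6:30723547-30748465, plus strand) went from 647, 612, 678 and 741 to 277, 288, 292 and 269 CPM (log2 fold change -1.25, SE 0.066, adjusted p = 3.26e-08). Peg10 averaged 230.0 ± 14.6 CPM at Day 0 and 58.4 ± 9.01 CPM under compression (log2 fold change -1.98). H19 and Igf2, neighbours in 1 imprinted cluster, were among the 3 that rose. H19, Igf2 and Sgce were called higher. Of 30 S phase genes, 14 were called lower and 0 higher (median -0.18), and in the control group 7 were called lower and 1 higher against Day 0. Mcm4, a subunit of the replicative helicase, went from 352, 322, 324 and 313 to 264, 239, 248 and 228 CPM (log2 fold change -0.42, SE 0.067, adjusted p = 0.000175). Pcna, the sliding clamp, did not pass the test (log2 fold change -0.057, SE 0.066, adjusted p = 0.494). Of 30 genes of G2 phase and mitosis 8 were called lower and 4 higher (median -0.053). That is 26.7% lower and 13.3% higher, against 22.5% and 26.6% of all genes tested. Called higher were Ccnb2, Ect2, Hmmr and Nek2. The kinesin Cenpe fell (log2 fold change -0.41, SE 0.086, adjusted p = 0.00135). The kinase Nek2 rose (log2 fold change 0.53, SE 0.067, adjusted p = 2.61e-05). The proliferation marker Mki67 did not pass the test (log2 fold change -0.29, SE 0.13, adjusted p = 0.0814; called without Day 0 replicate 2 or compression replicate 1, adjusted p = 0.00598 to 0.0377).

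E2F factors switch on S phase genes through sites that hold TTCCCGC or TTGGCGC. In the same 250-base window, on both strands, these letters were present in 33.3% of 30 S phase promoters (25 of 30 genes matched), against 5.62% of all 32851 promoters. The CHR element of mitotic genes (TTTGAA or TTCGAA) was present in 44.8% of 29 promoters of the mitosis list (26 of 30 genes matched) and 17.1% of all promoters. None of these letters overlap the X-box arm. The promoters of Chaf1a, a histone chaperone subunit of replication, and Mcm5, a helicase subunit, are shown with the E2F letters in capitals. They were chosen by the rule used for the axoneme promoters, with the smallest p-values in place of the highest folds.
Chaf1a (chr17:56040166-56040415, + strand): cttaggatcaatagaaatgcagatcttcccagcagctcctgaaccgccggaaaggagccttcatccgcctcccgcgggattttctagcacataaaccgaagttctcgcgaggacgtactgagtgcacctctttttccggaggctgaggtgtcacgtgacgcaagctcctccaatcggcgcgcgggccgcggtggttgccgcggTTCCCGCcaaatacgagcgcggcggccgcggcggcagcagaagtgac
Mcm5 (chr8:75109259-75109508, + strand): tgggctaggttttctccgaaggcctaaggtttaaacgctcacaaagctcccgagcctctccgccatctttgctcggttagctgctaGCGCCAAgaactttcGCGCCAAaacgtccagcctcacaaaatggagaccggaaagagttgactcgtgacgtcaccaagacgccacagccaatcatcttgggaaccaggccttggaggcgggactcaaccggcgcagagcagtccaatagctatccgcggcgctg
Chaf1a averaged 148 ± 10.3 CPM at Day 0 and 115 ± 1.89 CPM under compression (log2 fold change -0.36). Mcm5 averaged 188 ± 9.79 CPM at Day 0 and 149.9 ± 4.92 CPM under compression (log2 fold change -0.33). Mcm5 holds its match as the reverse complement of TTGGCGC at 2 places, of which the nearer begins 149 bases before the start site.

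Ribosome biogenesis genes, whose products process and assemble ribosomal RNA in the nucleolus, fell in most cases: 23 of 30 were called lower and 0 higher (median -0.39). Heatr1, a factor of the small subunit processome, went from 111, 104, 103 and 107 to 67.1, 59, 59.4 and 55.9 CPM (log2 fold change -0.82, SE 0.062, adjusted p = 5.1e-07). Polr1a, the catalytic subunit of RNA polymerase I, averaged 152 ± 5.29 CPM at Day 0 and 91.9 ± 7.68 CPM under compression (log2 fold change -0.73). The abundant nucleolar proteins nucleolin (Ncl) and nucleophosmin (Npm1) fell by 0.39 and 0.41 on the log2 scale. Rn45s, the transcript of RNA polymerase I, took 1.53, 0.765, 1.04 and 1.17% of counts in the Day 0 libraries and 0.553, 2.67, 2.14 and 5.64% under compression, so the groups overlapped, and it did not pass the test (log2 fold change 1.29, SE 0.59, adjusted p = 0.0951; called without compression replicate 1, adjusted p = 0.0103). Since the library kit selects polyadenylated RNA, it is not a measure of ribosomal RNA. Of 46 cytosolic ribosomal protein genes, 16 were called higher and 0 lower (median 0.16), and this count rested on single libraries. It was 5 without Day 0 replicate 3, 4 without Day 0 replicate 4, 9, 5 and 9 without compression replicates 2, 3 and 4, and 8 with replicates 2 and 3 summed. Targets of p53, which arrest or kill damaged cells, rose in 17 of 22 cases and fell in 0 (median 1.01; 1 fell without Day 0 replicate 1). Ccng1 (cyclin G1) went from 150.1, 143, 113 and 99.7 to 316, 405, 411 and 349 CPM (log2 fold change 1.55, SE 0.13, adjusted p = 1e-06), and Cdkn1a, the cell cycle inhibitor p21, averaged 26.1 ± 9.86 CPM at Day 0 and 194 ± 37 CPM under compression (log2 fold change 2.92). The death genes Pmaip1 (1.75 ± 0.662 CPM at Day 0 and 8.34 ± 1.06 CPM under compression, log2 fold change 2.23) and Bax (log2 fold change 0.74, SE 0.15, adjusted p = 0.00095) rose.

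Genes of protein stress and cholesterol synthesis were called higher more often than lower. Of 20 genes of the unfolded protein response, the answer to crowding in the endoplasmic reticulum, 14 were called higher and 0 lower (median 0.38). The count was 9 without Day 0 replicate 1, 8 without Day 0 replicate 2 and 9 without compression replicate 2. Calreticulin (Calr) went from 709, 628, 809 and 750.0 to 971, 991, 1049 and 953 CPM (log2 fold change 0.45, SE 0.091, adjusted p = 0.0011), and the chaperone BiP (Hspa5) did not pass the test (log2 fold change 0.28, SE 0.16, adjusted p = 0.169; called without Day 2 control replicate 4, adjusted p = 0.031). In the integrated stress response list 9 of 26 were called higher and 1 lower, which was Gpt2 (median 0.34). The lower count was 2 without Day 0 replicate 3, 3 without Day 0 replicate 4 and 0 without compression replicate 2 or 3 and with these summed. Cebpb (log2 fold change 1.29, SE 0.23, adjusted p = 0.000563) and Atf3 (log2 fold change 1.09, SE 0.28, adjusted p = 0.00622) rose, while the central factor Atf4 (log2 fold change 0.22, SE 0.086, adjusted p = 0.0522; called without compression replicate 1 or Day 2 control replicate 4, adjusted p = 0.0258 to 0.0331) and the amino acid gene Asns (log2 fold change -0.25, SE 0.18, adjusted p = 0.278) did not pass the test. The ATF4 site letters TGATGCA were in 19.2% of 26 promoters of this list (23 of 26 genes matched), against 2.68% of all promoters. Of 24 cholesterol synthesis genes 9 were called higher and 0 lower under compression (median 0.20), and in the control group 19 were called higher against Day 0 (median 0.40). Insig1, a sterol sensor, went from 80.3, 58.4, 73.2 and 72.3 to 144, 146, 145 and 123 CPM (log2 fold change 0.97, SE 0.10, adjusted p = 3.9e-06). The SREBP letters TCACCCC were in 2 of 19 promoters of this list (10.5%, with 16 of 24 genes matched) and in 4.31% of all, and so small a count says little.

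Of 30 genes of the hypoxia response and glycolysis 15 were called higher and 2 lower (median 0.33), the lower count being 1 without any 1 of Day 0 replicates 1 and 2 and compression replicates 1 to 3. The mean level of this list relative to its Day 0 mean was 0.333, 0.237, -0.374 and -0.195 in Day 0 replicates 1 to 4. In compression replicates 1 to 4 it was 0.197, 0.317, 0.32 and 0.496, so the groups overlapped. Calls in the lower direction belonged to Ankrd37 and Hk2. The carbonic anhydrase Car9, a target of hypoxia-inducible factor, averaged 2.3 ± 1.42 CPM at Day 0 and 7.61 ± 1.67 CPM under compression (log2 fold change 1.78). The glycolytic enzyme Aldoc averaged 9.14 ± 1.84 CPM at Day 0 and 24.2 ± 2.38 CPM under compression (log2 fold change 1.42). Hexokinase 2 (Hk2) fell (log2 fold change -0.83, SE 0.10, adjusted p = 2e-05), and the hypoxia target Vegfa is given above. Among oxidative phosphorylation genes 5 of 30 were called higher and 3 lower (median 0.072). Their higher count was 3, 2, 1 and 3 without Day 0 replicate 3, Day 0 replicate 4, compression replicate 3 and compression replicate 4, and 3 with replicates 2 and 3 summed. Their lower count was 1 without Day 0 replicate 2 or compression replicate 1 and 6 without compression replicate 4. Cox6a1, Ndufa1, Ndufa2, Ndufa4 and Ndufb3 made up the higher calls. Among those called lower were Atp5a1 and Cycs. Of 23 antioxidant targets of NRF2, 14 were called higher and 3 lower (median 0.42). Those called lower were Gpx1, Pgd and Txnrd1. The glutathione transferase Gsta3 averaged 0.601 ± 0.364 CPM at Day 0 and 6.21 ± 1.74 CPM under compression (log2 fold change 3.25). The ferritin heavy chain Fth1 averaged 468 ± 41.1 CPM at Day 0 and 841 ± 16.1 CPM under compression (log2 fold change 0.84). Hmox1, which breaks down heme, averaged 45.9 ± 6.43 CPM at Day 0 and 79.7 ± 15.4 CPM under compression (log2 fold change 0.80). Txnrd1 fell (log2 fold change -0.27, SE 0.11, adjusted p = 0.0445; call lost without Day 0 replicate 1, 3 or 4 or compression replicate 1 or 4, adjusted p = 0.0569 to 0.0862).

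YAP and TAZ are transcriptional co-activators that respond to cell shape and tension, and of 19 of their targets 13 were called higher and 3 lower (median 0.34). Amotl1, Asap1 and Birc5 were called lower. Ctgf, the best known target, stood at 6.12, 6.9, 4.22 and 4.01 CPM at Day 0 and at 18.9, 36.3, 37.9 and 34 CPM under compression (log2 fold change 2.61, SE 0.24, adjusted p = 2.96e-06). Cyr61 went from 14.2, 15.9, 8.94 and 8.51 to 32.3, 60.4, 61.1 and 54 CPM (log2 fold change 2.15, SE 0.24, adjusted p = 1.62e-05). Compression replicate 1 was the lowest of its group for both, and the groups did not overlap. The control group rose against Day 0 in 12 of the same genes, with a median of 0.29. Of 24 immediate early genes, which cells switch on within minutes of a stimulus, 13 were called higher and 4 lower (median 0.55), and 2 lower without Day 0 replicate 4. Called lower were Egr3, Jun, Klf2 and Nr4a2. Fos went from 12.3, 9.11, 3.39 and 4.61 to 19.1, 30.2, 27.7 and 25.6 CPM (log2 fold change 1.82, SE 0.31, adjusted p = 0.000403). Fosb averaged 0.703 ± 0.317 CPM at Day 0 and 2.81 ± 0.741 CPM under compression (log2 fold change 2.05). Jun fell (log2 fold change -0.20, SE 0.062, adjusted p = 0.015). Of 22 genes of steroid response and the circadian clock 12 were called higher and 2 lower (median 0.35), with 1 lower without Day 0 replicate 1 or 2 or compression replicate 2 or 3 and with replicates 2 and 3 summed. Calls in the lower direction belonged to Ciart and Fkbp5. The clock gene Npas2 averaged 1.17 ± 0.221 CPM at Day 0 and 7.33 ± 1.12 CPM under compression (log2 fold change 2.65). The glucocorticoid receptor Nr3c1 rose (log2 fold change 0.58, SE 0.06, adjusted p = 6.19e-06).

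Lists of tissues that could be carried along with a dissected lung were checked as well. Among 22 genes of neurons and neural crest 6 were called higher and 3 lower (median 0.12), with 5 lower without Day 0 replicate 4, and their summed level was 237 to 278 CPM at Day 0 and 236 to 316 CPM under compression. With all libraries 27.3% were called higher and 13.6% lower, against 26.6% and 22.5% of all genes tested. Gap43, Hand2 and Nefm made up the lower calls. Peripherin (Prph) rose (log2 fold change 1.99, SE 0.16, adjusted p = 7.42e-07) and the neurofilament Nefm fell (log2 fold change -1.16, SE 0.18, adjusted p = 0.000147). Skeletal muscle genes stayed low, at 8.47 to 13.3 CPM in sum at Day 0 and 25 to 36.8 CPM under compression. Of the 6 tested 2 were called higher (Myh8 and Mylpf). The fetal myosin Myh8 went from 0.941, 1.28, 3.53 and 4.28 to 18.1, 15.6, 15.9 and 22.6 CPM (log2 fold change 2.77, SE 0.34, adjusted p = 3.43e-05). The muscle factors Myod1, Myog, Myf5, Myf6 and Pax7 were below the testing filter. They had 8, 7, 23, 4 and 17 reads at Day 0 and 0, 3, 20, 5 and 23 under compression. Heart muscle genes summed to 38.6 to 89.3 CPM and 68.9 to 107 CPM, and 1 of 10 was called higher (Myh7, log2 fold change 2.03, SE 0.44, adjusted p = 0.0024) and 1 lower (Hand2). Liver genes summed to 25.6 to 39.2 CPM at Day 0 and 60.2 to 106 CPM under compression, of which the widely made transferrin (Trf) held 22.4, 18, 20.2 and 23.1 and 57.9, 102, 103 and 92.3 CPM (log2 fold change 2.08, SE 0.55, adjusted p = 0.0102). Without Day 2 control replicate 4 in the fit, 2 liver genes were called higher and 4 lower, where all libraries gave 1 and 0. Among liver genes below the testing filter, Fga, Fgb and Ahsg had 1, 1 and 2 reads at Day 0 and 0 in the 4 compression libraries. Apoa1, Apoa2, Ttr, Apob, Apoh and Ambp had 15, 8, 10, 2, 1 and 31 reads at Day 0. Under compression these genes had 3, 11, 3, 5, 3 and 16 reads. Apoa4 had no read in either group. Day 2 control replicate 4 held more liver transcripts, with 638 CPM of albumin (Alb) against at most 2.23 CPM in the 8 libraries compared here. It shares the filter on low counts, the normalization and the estimate of the spread with the compression comparison.

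**Figure D4:**
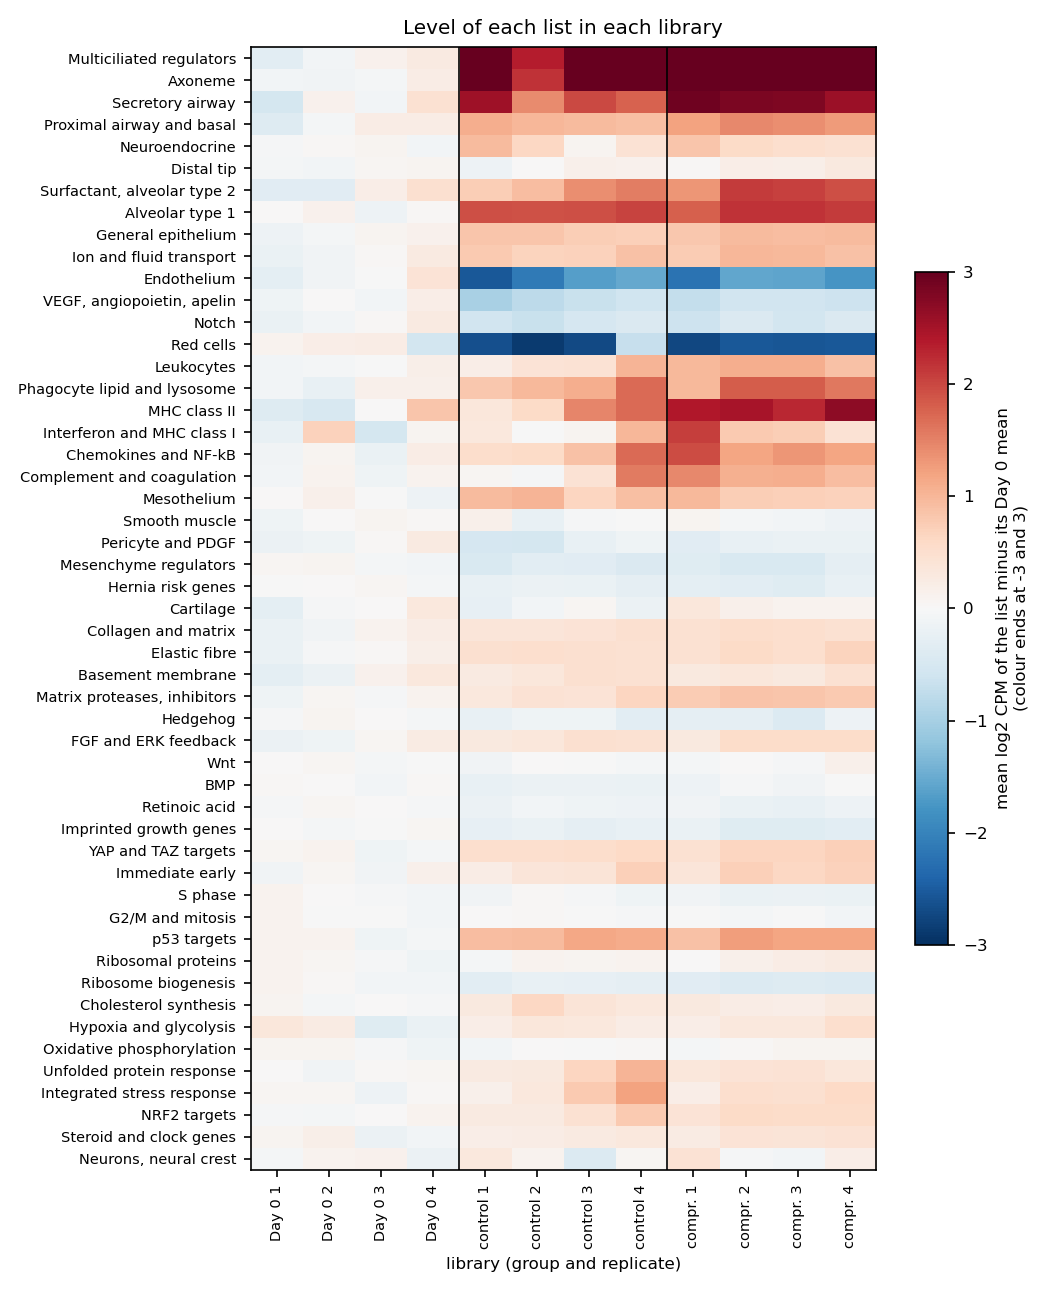
Mean log2 CPM of each gene list of the plot of called shares, in each of the 12 libraries (columns), shown as the difference from the Day 0 mean of the list; red is higher, blue lower, and colours end at -3 and 3. The 4 compression columns resemble each other in most rows, and compression replicate 1 differs from the other 3 in several. These include the interferon (2.07 against 0.43 to 0.79) and chemokine rows (1.95 against 1.175 to 1.32). Others are the phagocyte (0.97 against 1.57 to 1.82), surfactant (1.33 against 1.92 to 2.10) and endothelium rows (-2.22 against -1.76 to -1.56). Xist and Y-linked genes, which also set it apart, are not drawn.

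Values of the Day 2 control group are set beside those of compression because both were measured against the same 4 Day 0 libraries, so their changes share those libraries and are not independent. Control replicates 2 and 3 held 2414 and 2237 CPM of Xist and at most 0.034 CPM of the Y-linked genes. Control replicates 1 and 4 had Y-linked reads and under 1 CPM of Xist. The part of this imbalance in the values below was not tested. The difference between the Day 2 groups has its own test. In that test no gene was called by edgeR (0% of 15246 tested, lowest adjusted p = 0.0767, with 1839 genes at an unadjusted p under 0.05), and for 5.77% of genes the 4 and 4 libraries did not overlap. Foxj1 stood at 41.8, 12.8, 38.1 and 34.1 CPM in control replicates 1 to 4, 5.5 above Day 0 on the log2 scale where compression was 6.5 above, and the difference of compression from control was 0.99 (95% interval 0.40 to 1.58, adjusted p = 0.309). Sftpc stood at 459.7, 466, 631 and 740.4 CPM in controls, with a difference of 0.83 (95% interval 0.29 to 1.36, adjusted p = 0.321). For Lmo7 the controls held 120.1, 125, 127 and 130.5 CPM and the difference was 0.091 (95% interval -0.15 to 0.33, adjusted p = 0.75). H2-Eb1 had 0.483, 0.412, 0.612 and 0.702 CPM in controls, 0.54 against Day 0 on the log2 scale, and all compression libraries lay above all controls, with a difference of 2.36 (95% interval 1.56 to 3.16, adjusted p = 0.0767). Among the falls, Aplnr stood at 1.22, 1.13, 4.76 and 3.45 CPM in controls, with a difference of 0.037 (95% interval -0.93 to 1.01, adjusted p = 0.977). Hmga2 stood at 69.5, 83.1, 89.5 and 76.3 CPM, with a difference of -0.14 (95% interval -0.51 to 0.23, adjusted p = 0.742). Heatr1 stood at 75, 77.4, 73.2 and 73.4 CPM, with a difference of -0.31 (95% interval -0.44 to -0.18, adjusted p = 0.224). The intervals of Aplnr, Hmga2 and Lmo7 include 0 and do not show that the groups were alike.

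By list, the direction of the difference between the Day 2 groups can be counted. Over all genes tested, 1839 of 15246 had an unadjusted p under 0.05 for this difference. The share of all genes fitted higher under compression was not computed, so the direction counts have no background beside them. All 32 of 32 axoneme genes and 26 of 26 leukocyte genes had a higher fitted level under compression than in controls, with 24 and 15 at an unadjusted p under 0.05 and lowest adjusted p-values of 0.309 and 0.252. The mean level of the axoneme list relative to Day 0 was 4.22, 2.17, 3.75 and 3.56 in control replicates 1 to 4, so replicate 2 was far below the others and replicate 1 was above compression replicate 4 (3.93). That of the leukocyte list was 0.19, 0.40, 0.44 and 1.01 in controls, where replicate 4 lay within the compression range (0.87 to 1.09). Of the ribosomal protein genes 44 of 46 were higher and of the ribosome biogenesis genes 2 of 30, with 1 and 13 at an unadjusted p under 0.05. Endothelial genes were higher under compression in 24 of 32 cases, although both Day 2 groups had 26 called lower against Day 0. Unfolded protein response genes were higher under compression in 1 of 20 cases and cholesterol synthesis genes in 3 of 24, the remaining members being higher in controls. The unfolded protein response list stood at 0.28, 0.30, 0.64 and 1.01 in control replicates 1 to 4 and at 0.34 to 0.44 under compression, so controls 1 and 2 lay below every compression library and controls 3 and 4 above. Members of a list vary together across libraries, so these counts are not independent observations. Control replicate 4, with its liver transcripts, also had the highest control level of the complement list (1.55 above Day 0 against -0.044 to 0.44 in the other controls), and its part in these differences was not tested.

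**Figure D5:**
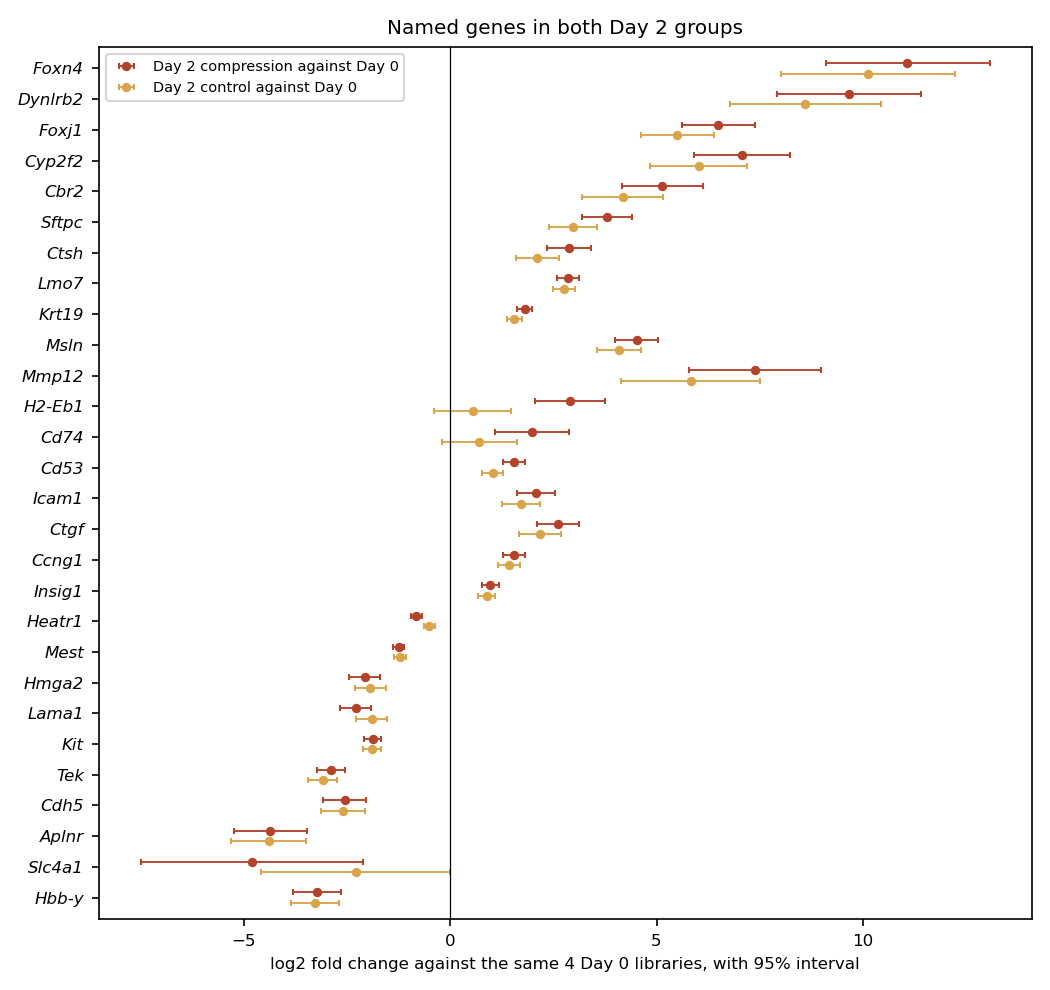
Log2 fold change of 28 named genes against the same 4 Day 0 libraries (horizontal axis), with 95% intervals, for Day 2 compression (red) and Day 2 control (yellow). The 2 groups share the direction of the fitted change for the genes shown, and the control intervals of H2-Eb1, Cd74 and Slc4a1 include 0.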

How the data were processed

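RNA was sequenced from whole lung explants, 4 libraries in each of 3 groups, with a poly(A) library kit per the labels' protocols. The authors deposited 1 table of whole-number read counts per gene symbol, with no normalization. Reads were trimmed with fastp and aligned with STAR to mm10, per the submitters' processing notes. The counting tool, strand setting and gene annotation are not stated by those notes, the labels or the table. Counts were tested with edgeR 4.0.16 in R 4.3.3 by the quasi-likelihood F test with robust fitting. The filter was filterByExpr (minimum count 10, total 15), the normalization TMM, and all 12 libraries entered 1 fit with group as the only factor, so that they share the estimate of the spread. The contrast was compression minus Day 0, with Benjamini-Hochberg adjustment over the 15246 genes tested and a threshold of 0.05. CPM values are counts relative to the TMM-scaled library size. SE values are the log2 fold change divided by the square root of F. Ratios of genes with 3 or fewer Day 0 counts are of summed counts scaled to summed library sizes, with exact 95% intervals that cover counting error only, and a group at 0 was set at a floor of 3 counts over its 4 libraries. The script was tested on simulated counts.

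The labels do not say that libraries are separate animals, so p-values measure only the spread between these samples. The labels do not say that replicate numbers pair the samples of the 2 groups, and the samples were tested as unpaired. The gene lists and the comparison were chosen with earlier results of these data known. Genes named are the 12 largest rises and falls among called genes that reach 1 CPM and whose groups are separate, the 5 smallest p-values and the 5 largest CPM changes in each direction (predicted and numbered genes left out), and up to 4 members per list by p-value. Further members were chosen after their values were seen, for their known roles, and some listed genes are not reported here. Lists share some members. Alternatives covered the filter, normalization, tool, test, library set, a replicate block and leaving out each library; DESeq2 1.42.0 and limma 3.58.1 were among them. Of 318 genes named, 311 matched the GENCODE annotation of GRCm38 by symbol and 6 through an older symbol. Exons of 33 overlap another gene on the opposite strand over more than 10% of their length, and 7 on the same strand, and reads cannot be told apart there; among them Nrarp, Tagln, Mns1, Chaf1a, Bmp5, Igf2, Trf and C2 overlap by over 40%. Globin, MHC, Saa and metabolic enzyme families hold near-identical members, whose values are uncertain.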

Additional observations from a re-analysis of the deposited data

Results flagged for a closer look

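In a group of 4 libraries, the highest or lowest value was looked at where its gap to the nearest of the others, divided by the range, was above Dixon's 95% limit for 4 values. For independent, normally distributed values, chance alone flags about 1 in 20 groups. Day 0 values of Ccdc108, Ccdc180, Dynlrb2, Sec14l3 and Tekt4 were 0 in all but the flagged library, which passes the limit by construction. Compression replicates 2 and 3 were close to each other, so the flagged share cannot be read against that rate. Of 746 groups of values (named genes in CPM, and list levels), 61 passed this limit, and in each sentence below a value is followed by that of the nearest other library of its group. Compression replicate 1 was the highest, in CPM, for Acan (1.29, nearest 0.162), Aldh1a2 (74.2, nearest 56), C1qb (26.2, nearest 18.2), C3 (60.4, nearest 7.06), Dnah5 (11.9, nearest 3.28), H19 (9443, nearest 8486), Igf2 (5025, nearest 4312), Igfbp5 (1811, nearest 1464) and Irf7 (13.3, nearest 2.66). It was also the highest for Ltbp1 (121, nearest 86.3), Mki67 (857, nearest 638), Peg10 (71.9, nearest 54.6), Saa3 (89.8, nearest 1.76), Vcan (714, nearest 534) and Xist (2771, nearest 0.49). Compression replicate 1 was the lowest, in CPM, for Ager (64.9, nearest 119.8), Asns (35, nearest 46.3), Bmp4 (72.1, nearest 95.2), Cdkn1a (139, nearest 207), Fgf10 (59.4, nearest 69.4), Htra1 (28.5, nearest 35.8), Icam1 (65.8, nearest 96.7), Lmo7 (104, nearest 140.5) and Npas2 (5.67, nearest 7.74). Compression replicate 3 was the lowest, in CPM, for Gli1 (87.5, nearest 95.2). Compression replicate 4 was the highest, in CPM, for Alas2 (1.81, nearest 1.32), Hmox1 (103, nearest 73.1), Mcm5 (157, nearest 148) and Rara (82.2, nearest 68.5). Compression replicate 4 was the lowest, in CPM, for Insig1 (123, nearest 144), Sec14l3 (26.9, nearest 45.7) and Tnc (111, nearest 127). Day 0 replicate 1 was the highest, in CPM, for Lox (263, nearest 217), Scg2 (0.257, nearest 0.0917) and Tekt4 (0.0428, nearest 0). Day 0 replicate 1 was the lowest, in CPM, for Igfbp5 (1733, nearest 2072) and Lmod1 (2.35, nearest 3.99). Day 0 replicate 2 was the highest, in CPM, for Prox1 (11.5, nearest 8.09). Day 0 replicate 2 was the lowest, in CPM, for Cenpe (195, nearest 240.0). Day 0 replicate 3 was the highest, in CPM, for Col3a1 (3244, nearest 2855), Ltbp1 (163, nearest 145) and Trp73 (0.183, nearest 0.0898). Day 0 replicate 3 was the lowest, in CPM, for Atf4 (150.4, nearest 163). Day 0 replicate 4 was the highest, in CPM, for Ccdc108 (0.0599, nearest 0), Ccdc180 (0.02995, nearest 0), Dynlrb2 (0.02995, nearest 0), Flt1 (20.6, nearest 11.1), H2-Eb1 (0.779, nearest 0.229), Nkx2-1 (196, nearest 163), Nrarp (10.2, nearest 6.51), Pecam1 (79.9, nearest 58.7) and Sec14l3 (0.02995, nearest 0). Day 0 replicate 4 was the lowest, in CPM, for Hbb-bh1 (17.9, nearest 57.2). On the scale of list levels (mean log2 difference from Day 0), Day 0 replicate 4 was the highest for axoneme (0.231, nearest -0.049), Day 0 replicate 4 was the lowest for red cells (-0.54, nearest 0.114), Day 0 replicate 3 was the lowest for integrated stress response (-0.155, nearest 0.044), compression replicate 1 was the lowest for general epithelium (0.801, nearest 0.917), compression replicate 1 was the highest for mesothelium (0.983, nearest 0.742), compression replicate 1 was the lowest for pericyte and PDGF (-0.351, nearest -0.224), compression replicate 1 was the lowest for FGF and ERK feedback (0.297, nearest 0.544), compression replicate 1 was the lowest for the list of Xist and Y-linked genes (-5.295, nearest -0.116).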

How the results depend on the processing

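Apart from a test against a minimum change, the number of genes called stayed within 1.5 times 7489 under every alternative run. It was 6658 to 9121 over the other filters, normalizations, tools and library sets (3447 to 4852 higher and 3211 to 4269 lower, with 1124 to 1559 higher and 314 to 522 lower at 2-fold or more). Leaving out 1 library gave 6555 to 7633 genes (3387 to 4037 higher, 3168 to 3768 lower), and 1279 to 1465 higher and 393 to 522 lower at 2-fold or more. With compression replicates 2 and 3 summed, 6658 genes were called, of which 6568 were also called with the libraries separate. Tested with glmTreat against a log2 change of 0.5 instead of 0, 2058 genes were called, 1532 higher and 526 lower, because small changes no longer count. Of 353 called genes that are named in the text or by the naming rule, 230 stayed called under glmTreat, 334 with replicates 2 and 3 summed, 333 to 341 without 1 Day 0 or compression library and 350 with DESeq2. No called gene among them changed direction.

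The samples of the groups share replicate numbers. Deviations from the group mean correlated at 0.108, -0.141, 0.0257 and -0.0276 between Day 0 and compression libraries of the same number. Not every library correlated best with its own number. These weak correlations gave no sign of pairing by number, and a shared litter or day of preparation was not tested. With the replicate number as a replicate block 7895 genes were called (4196 higher and 3699 lower, 1394 and 405 at 2-fold or more).

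The genes whose fitted direction turned under an alternative had not passed the test in the fit reported above. With limma-voom and quality weights the log2 fold change was -0.031 for Actn2, -0.112 for Col1a1, -0.035 for Etv5, -0.398 for Muc5ac, -0.004 for Myl4 and -0.044 for Piezo1. Actn2 was at -0.006 with relative log expression size factors and -0.014 with DESeq2, and C1qb at 0.007 with library totals alone and 0.018 with replicates 2 and 3 summed. The ranges over the fits that leave out 1 library were Actn2 -0.322 to 0.433, C1qb -0.188 to 0.042, Col1a1 -0.091 to 0.094, Eng -0.045 to 0.179, Etv5 -0.046 to 0.058, Lyve1 -0.044 to 0.188, Muc5ac -0.502 to 0.852, Myl4 -0.277 to 0.519, Notch1 -0.131 to 0.091, Piezo1 -0.087 to 0.088, Spdef -0.053 to 0.573 and Ttn -0.981 to 0.227. The cause was not tested. Precision is limited by 4 libraries per group and, for genes silent at Day 0, by the smallest library of 13979871 counts. The test of compression against the Day 2 control was run with edgeR alone.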
